A study of Saccharomyces cerevisiae with 7 samples.

Results

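Yeast takes up copper with a small set of genes under the transcription factor Mac1, and 7 genes of this system are described here: MAC1 itself, the targets CTR1, FRE1, FRE7, REE1 and IRC7, and CTR2, which encodes a copper transporter of the vacuole membrane. They were found by gene symbol among 5449 named genes of Saccharomyces cerevisiae, and each was measured by 1 probe set out of 5498 named ones. The genes were selected on levels seen earlier in these same arrays, namely the difference between the strains and the spread among the wild-type arrays, so both are given as a description and neither is tested for them.

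Mac1 is a copper sensor of the nucleus that activates its targets when copper is scarce and loses activity when copper is plentiful. At the cell surface, metalloreductases such as Fre1 and Fre7 reduce oxidised copper, and the high-affinity transporter Ctr1 then carries the reduced ion into the cell. Copper stored in the vacuole is released into the cytosol by Ctr2. Copper is needed by superoxide dismutase, by cytochrome c oxidase and by the multicopper oxidase of high-affinity iron uptake, which ties copper supply to respiration and to iron.

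Each of 7 cultures gave total RNA for 1 Affymetrix array of the Yeast Genome 2.0 design. The wild type was BY4741, a haploid strain of genotype MATa with the deletions his3∆1 and leu2∆0 as well as met15∆0 and ura3∆0, in 4 biological replicates. The other strain, in 3 biological replicates, was hmt1∆::KANMX4 in the BY4741 background, so it carries the same auxotrophic deletions and lacks Hmt1, the enzyme that makes most of the arginine methylation in yeast proteins. Rich medium and media with or without phosphate appear in the labels, none is tied to these cultures, and their copper content is not stated. Levels below are log2 expression as deposited, and a difference is the deletion mean less the wild-type mean. A level of one probe set cannot be set against that of another, so genes are compared by their differences only.

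HMT1 read 11.58 to 12.10 in the wild type and 4.50 to 5.03 in the deletion strain, and wild-type replicate 3, which matters below, had 11.58. Its difference was -7.07 (SE 0.15, limma adjusted p = 4.89e-07, exact two-sided permutation p = 0.0286, the smallest that 7 arrays allow). The deleted URA3, LEU2 and MET17 read 3.48 to 5.26 on all arrays. Array medians lay between 9.91 and 9.94. The 6 markers of mating type a read 10.49 to 13.50 and the 4 of mating type alpha 3.95 to 9.15. The 4 markers of meiotic diploids read 5.35 to 8.00, and none of the 14 markers was called between the strains by limma.

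Before the results, 2 wild-type arrays need to be named, since the values below rest on them. For CTR1, FRE1 and FRE7, wild-type replicate 3 was the highest wild-type array and replicate 4 the lowest. Over all 5498 probe sets this pair of positions occurred in 6.57%. Wild-type replicate 3 was also the wild-type array nearest to the deletion strain across the whole table, with a root-mean-square difference of 0.189 from the mean of the deletion arrays, against 0.230 for replicate 4, 0.274 for replicate 1 and 0.303 for replicate 2.

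The deletion arrays held high and nearly equal levels of the Mac1 targets, while the wild-type arrays ranged widely, mostly below it. The highest wild-type array reached the deletion level in CTR1, FRE1, REE1 and IRC7 and stayed below it in FRE7. FRE7 was higher in the deletion strain by 2.12, CTR1 by 0.80, FRE1 by 0.74, REE1 by 0.64 and IRC7 by 0.27, while MAC1 and CTR2 were close to equal in the strains. Of the 7 genes, 4 were at least 0.5 higher, a size that 0.618% of all probe sets reached. None of the 7 was called by limma at an adjusted p under 0.05, where 0.2% of all probe sets were called, and 1, FRE7, had an unadjusted p under 0.05, as did 6.64% of all. The median difference was 0.64 over the 7 genes and 0.0065 over all probe sets. These counts describe genes chosen on this contrast and are no test of them. In a bulk culture a higher level per cell and a larger share of cells with a high level cannot be told apart.

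MAC1, the regulator, did not follow its targets. Its level was 9.12, 8.82, 9.02 and 9.10 in wild-type replicates 1 to 4 and 9.07, 8.89 and 9.09 in deletion replicates 1 to 3. The lowest arrays were wild-type replicate 2 and deletion replicate 2, and the groups overlapped fully. Its mean was 9.02 ± 0.14 (SD, n = 4) without the deletion and 9.02 ± 0.11 (SD, n = 3) with it, and the SE of the difference was 0.09. Mac1 is controlled by copper mostly as a protein, in its stability and activity, which a transcript level does not show.

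CTR1, the high-affinity copper transporter, read 12.03, 11.37, 12.70 and 10.75 in wild-type replicates 1 to 4. In deletion replicates 1 to 3 it read 12.55, 12.46 and 12.53. The deletion arrays thus lay within 0.096 of each other, while the wild-type arrays covered 1.95, a 3.86-fold range. Wild-type replicate 3 stood above all deletion arrays and the other wild-type arrays below them. The wild-type mean was 11.71 ± 0.84 (SD, n = 4) and the deletion mean 12.51 ± 0.05 (SD, n = 3), a difference of 0.80 (SE 0.40), or 1.74-fold.

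FRE1, the main cell-surface reductase for copper and iron, followed the same order. It read 12.27, 11.53, 12.61 and 10.59 in wild-type replicates 1 to 4 and 12.43, 12.38 and 12.67 in deletion replicates 1 to 3. Wild-type replicate 3 lay among the deletion arrays, replicate 1 lay just below the lowest of them, and replicates 2 and 4 were clearly lower. The wild-type range was 2.02, or 4.05-fold. The difference between the means of 11.75 ± 0.89 (SD, n = 4) and 12.49 ± 0.16 (SD, n = 3) was 0.74 (SE 0.43), or 1.67-fold.

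FRE7, a second reductase of the family that responds to copper, differed most. Its level was 6.96, 6.75, 8.50 and 5.73 in wild-type replicates 1 to 4 and 9.02, 9.08 and 9.23 in deletion replicates 1 to 3. All deletion arrays lay above all wild-type arrays, with a gap of 0.52 between the lowest deletion array and wild-type replicate 3. FRE7 was the 1 gene of the 7 whose groups did not overlap, a state found with the deletion higher in 3.15% of all probe sets and with the deletion lower in 4.49%. The wild-type mean was 6.98 ± 1.15 (SD, n = 4) and the deletion mean 9.11 ± 0.11 (SD, n = 3), a difference of 2.12 (SE 0.55), or 4.36-fold. Among the 5498 probe sets this was the highest difference in favour of the deletion strain, with CTR1 at rank 7, FRE1 at rank 12 and REE1 at rank 17. The wild-type levels of FRE7 were all under 8.82, the 25th percentile of mean levels.

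REE1, named for an effect of its protein on enolase, divided the arrays in another way. It read 10.95, 10.87, 12.07 and 10.92 in wild-type replicates 1 to 4 and 11.94, 11.75 and 11.82 in deletion replicates 1 to 3. Wild-type replicate 3 stood above all deletion arrays, and the 3 other wild-type arrays lay within 0.081 of each other, well below them. In REE1, unlike in CTR1, FRE1 and FRE7, wild-type replicate 4 therefore did not stand below replicates 1 and 2. The wild-type mean was 11.20 ± 0.58 (SD, n = 4) and the deletion mean 11.84 ± 0.09 (SD, n = 3), and the difference was 0.64 (SE 0.28), or 1.55-fold.

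IRC7, which encodes an enzyme that splits cysteine and related sulfur compounds, had a weaker form of the pattern. Its level was 10.95, 10.41, 11.24 and 10.58 in wild-type replicates 1 to 4 and 11.07, 10.95 and 11.19 in deletion replicates 1 to 3. Wild-type replicate 3 was the highest of all arrays, replicate 1 lay among the deletion arrays, and replicates 2 and 4 lay below. The means were 10.80 ± 0.37 (SD, n = 4) and 11.07 ± 0.12 (SD, n = 3), a difference of 0.27 (SE 0.19).

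CTR2, the vacuolar transporter, is not known as a Mac1 target and varied little. It read 11.52, 11.20, 11.39 and 11.23 in wild-type replicates 1 to 4 and 11.52, 11.35 and 11.47 in deletion replicates 1 to 3. Wild-type replicates 1 and 3 lay among the deletion arrays, and replicates 2 and 4 lay below them. The difference was 0.11 (SE 0.09) between means of 11.33 ± 0.15 (SD, n = 4) and 11.45 ± 0.09 (SD, n = 3).

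**Figure D1:**
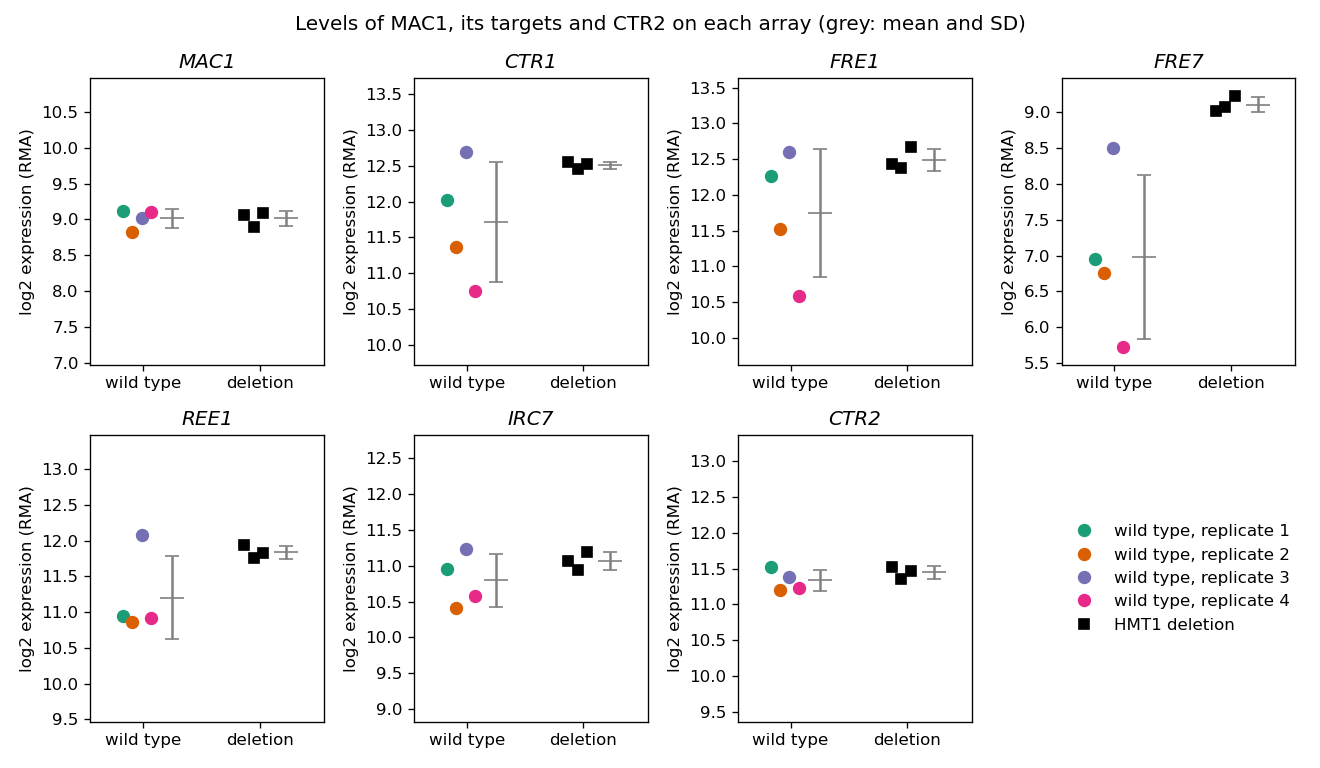
Log2 expression of the 7 genes on each array, with wild-type replicates as coloured circles, the 3 HMT1 deletion replicates as black squares, and the mean and SD of each group in grey; every panel spans 4 log2 units. CTR1, FRE1, FRE7 and REE1 spread widely over the wild-type arrays and little over the deletion arrays, and in FRE7 alone the groups do not overlap.

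Set against the mean of the deletion arrays, the wild-type arrays showed how far each culture lay from the deletion strain. Wild-type replicate 3 was 0.19 above it in CTR1, 0.12 above in FRE1, 0.24 above in REE1 and 0.17 above in IRC7, and in FRE7 it fell short of it, at -0.61. Wild-type replicate 4 was at -3.38 in FRE7, -1.90 in FRE1, -1.76 in CTR1, -0.92 in REE1 and -0.48 in IRC7. Over the 7 genes the root-mean-square difference from the deletion mean was 0.269 for wild-type replicate 3, 0.905 for replicate 1, 1.15 for replicate 2 and 1.66 for replicate 4. By this measure replicate 4 was the second nearest wild-type array across the 5498 probe sets, and the farthest over these 7 genes. By the median difference over the 7 genes, replicate 2 was slightly farther, at -0.96 against -0.92 for replicate 4.

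**Figure D2:**
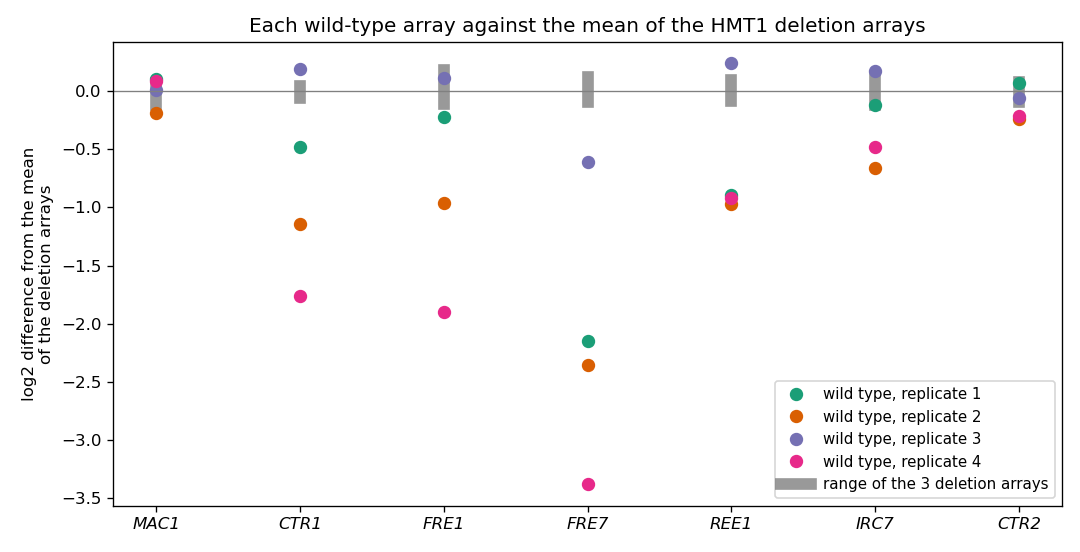
Log2 difference of each wild-type array from the mean of the 3 deletion arrays, by gene; grey bars span the deletion arrays. Wild-type replicate 3 (violet) lies within or above the range of the deletion arrays in all genes but FRE7, where it is at -0.61, and wild-type replicate 4 (pink) is lowest in CTR1, FRE1 and FRE7, down to -3.38.

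The spread within the wild type was unusual in size for 5 of the 7 genes. The SD over the 4 wild-type arrays was 1.15 for FRE7, 0.89 for FRE1, 0.84 for CTR1, 0.58 for REE1 and 0.37 for IRC7, while the median over all probe sets was 0.129. These values lay between the 96.1st and the 99.8th percentile of all probe sets, and those of CTR2 and MAC1 at the 59.0th and 53.4th. An SD of at least 0.5 occurred in 4 of the 7 genes and in 1.91% of all probe sets. Over the 3 deletion arrays the picture was ordinary, with SDs of 0.05 for CTR1, 0.11 for FRE7, 0.09 for REE1, 0.12 for IRC7 and 0.16 for FRE1 against a median of 0.0714. The wild-type SD was 16.7 times the deletion SD in CTR1 and 10.8 times in FRE7. A larger wild-type than deletion SD was found in all 7 genes, and in 76.1% of all probe sets.

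**Figure D3:**
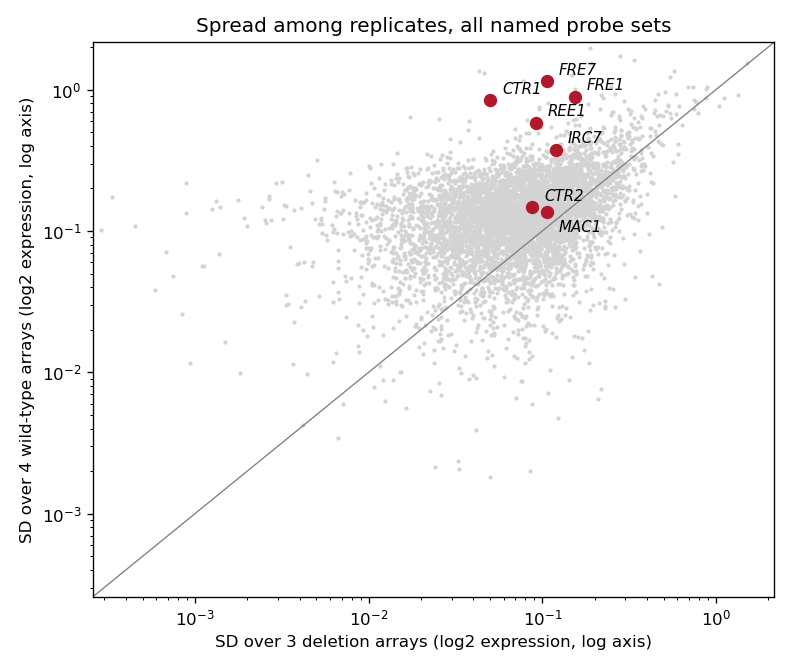
SD over the 4 wild-type arrays against SD over the 3 deletion arrays for all named probe sets (grey, both axes logarithmic; 19 probe sets with an SD of 0 in either strain are not drawn) and the 7 genes (red); the line marks equal SDs. FRE7, FRE1, CTR1 and REE1 combine wild-type SDs of 0.58 to 1.15 with deletion SDs of 0.05 to 0.16, and MAC1 and CTR2 lie within the cloud.

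Because single wild-type arrays differed so much, the size of the differences depended on which of them were used. Without wild-type replicate 3 the difference was 2.63 (SE 0.30) for FRE7, 1.13 (SE 0.29) for CTR1, 1.03 (SE 0.38) for FRE1, 0.93 (SE 0.07) for REE1 and 0.42 (SE 0.14) for IRC7. Without wild-type replicate 4 it was 1.71 (SE 0.43) for FRE7, 0.54 (SE 0.31) for REE1, 0.48 (SE 0.30) for CTR1, 0.36 (SE 0.26) for FRE1 and 0.20 (SE 0.20) for IRC7. The count of genes at least 0.5 higher was 4 without replicate 3 and 2 without replicate 4. Leaving out any 1 of the other 5 arrays kept this count at 4, and FRE7 lay between 1.71 and 2.63 over all 7 omissions.

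A division of the wild type into replicates 1 and 3 and replicates 2 and 4 was already known from other genes of these arrays, among them mating genes. AGA2, a subunit of the a-agglutinin, read 10.54, 11.76, 10.49 and 12.04 in wild-type replicates 1 to 4 and 11.35 to 11.57 in the deletion strain. It was thus lower in replicates 1 and 3, where CTR1, FRE1, FRE7, IRC7 and CTR2 were higher. In REE1 only replicate 3 stood apart, and replicate 1 (10.95) was close to replicates 2 and 4 (10.87 and 10.92). In MAC1 replicate 4 (9.10) was above replicate 3 (9.02). The mean of replicates 1 and 3 exceeded that of 2 and 4 by 1.49 for FRE7, 1.38 for FRE1, 1.30 for CTR1, 0.62 for REE1, 0.60 for IRC7, 0.24 for CTR2 and 0.11 for MAC1. Whether the mating genes and the copper genes vary together for a shared reason was not tested.

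Against replicates 2 and 4 alone, the deletion strain was higher by 2.87 (SE 0.29) in FRE7, 1.45 (SE 0.18) in CTR1, 1.43 (SE 0.27) in FRE1, 0.95 (SE 0.08) in REE1 and 0.57 (SE 0.10) in IRC7. Against replicates 1 and 3 alone the same differences were 1.38 (SE 0.44), 0.15 (SE 0.20), 0.05 (SE 0.14), 0.33 (SE 0.33) and -0.03 (SE 0.12). FRE7 was the 1 gene that stayed at least 0.5 higher against either pair, 7.31-fold and 2.60-fold. For CTR1, FRE1 and IRC7 the difference against replicates 1 and 3 was smaller in size than its standard error. The same held for CTR2 and MAC1, and in REE1 the difference and its standard error were both 0.33.

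**Figure D4:**
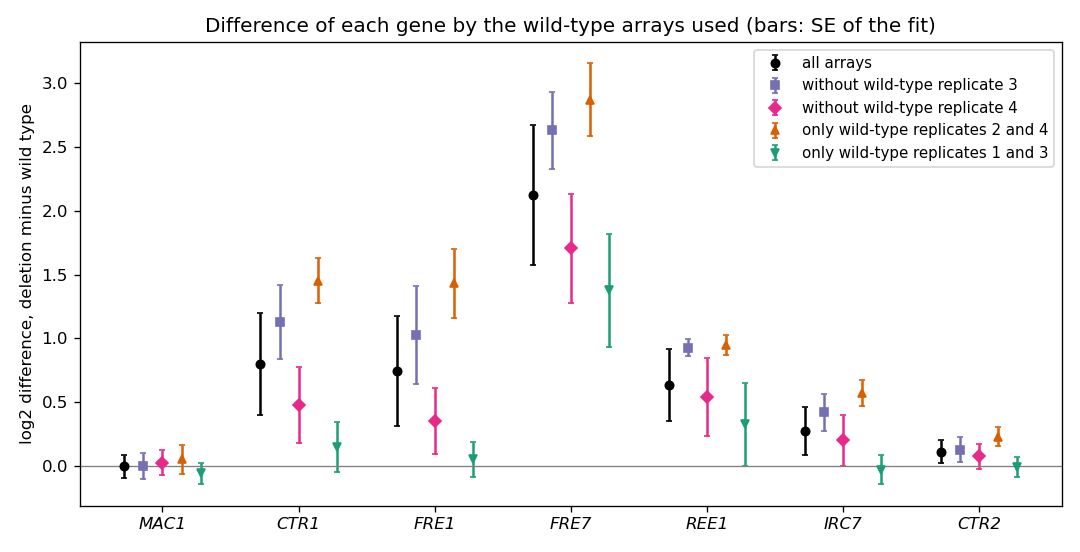
Log2 difference, deletion minus wild type, of the 7 genes with all arrays and with parts of the wild type; bars are standard errors of the limma fit. FRE7 stays between 1.38 and 2.87, while CTR1 ranges from 0.15 to 1.45 and FRE1 from 0.05 to 1.43.

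The likeness of the genes to each other was measured as the root-mean-square difference over the 7 arrays after centring each gene on its own mean, among 4192 genes. It is a description, and the compared genes share the same 7 arrays. FRE7 was too dim on average to be among the ranked genes. So were several genes given below, among them CRR1, YJL218W, CTR3, FRE2 and FRE5. Among the ranked genes, the nearest to CTR1 was FRE1 (0.149), and the nearest to FRE1 was CTR1. The unranked CRR1, described below, was nearer to CTR1 than FRE1 was. It was at 0.183 from FRE1, and it was nearer than YLR108C to both FRE1 and FRE7. The next ranked genes for CTR1 were REE1 (0.348) and YLR108C (0.354), and IRC7 was at rank 7. For FRE1 the next ranked genes were YLR108C (0.404) and LYS20 (0.448), a homocitrate synthase of lysine synthesis. For FRE7 the nearest ranked genes were CTR1 (0.710), FRE1 (0.758) and YLR108C (0.842). YLR108C read 9.29, 9.53, 10.06 and 8.50 in wild-type replicates 1 to 4 and 9.70 to 10.43 in the deletion strain.

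The 3 ranked genes nearest to REE1 were none of the members. They were HSP78 (0.205), a chaperone of the mitochondrial matrix, STI1 (0.241), a cochaperone of Hsp90 and Hsp70, and XKS1 (0.282), xylulokinase. The unranked YJL218W, a neighbour of REE1 described below, was at 0.256 and so nearer than XKS1. HSP78 read 9.29, 9.30, 10.37 and 9.29 in wild-type replicates 1 to 4 and 9.88 to 10.55 in the deletion strain, so that wild-type replicate 3 stood apart in it as in REE1. Of the other members, IRC7 came at rank 9 for REE1 (0.297), CTR1 at rank 55 and FRE1 at rank 1098 of 4191.

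The genes next to the members were looked up by name in the R64 annotation, and 13 of 14 were measured. None of the 13 was called by limma at an adjusted p under 0.05, 1 had an unadjusted p under 0.05, and their median difference was 0.059. CRR1 (YLR213C), a cell wall protein gene of sporulation, lies next to FRE1 (YLR214W), and their systematic names place them on opposite strands with their starts facing each other. CRR1 read 7.15, 6.30, 7.79 and 5.84 in wild-type replicates 1 to 4 and 7.62, 7.22 and 7.59 in deletion replicates 1 to 3. Its wild-type arrays fell in the same order as those of FRE1, its wild-type SD was 0.87, and its difference was 0.71 (SE 0.42, limma adjusted p = 0.803), with a root-mean-square difference of 0.183 from FRE1. On its other side, CDC123 was at -0.03 (SE 0.10). Beside REE1, YJL218W read 8.32, 8.36, 9.10 and 8.47 in wild-type replicates 1 to 4 and 8.91, 8.80 and 8.69 in deletion replicates 1 to 3. As in REE1, wild-type replicate 3 was its highest array and the 3 other wild-type arrays lay below the deletion arrays. Its difference was 0.24 (SE 0.18, limma adjusted p = 0.840), with a root-mean-square difference of 0.256 from REE1.

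On the other side of REE1, IMA5, an isomaltase, was at -0.46 (SE 0.09, limma adjusted p = 0.215), with a root-mean-square difference of 0.688. Beside FRE7, GRE2, a methylglyoxal reductase, read 10.55, 10.06, 11.11 and 10.02 in wild-type replicates 1 to 4 and 10.61, 10.60 and 10.37 in deletion replicates 1 to 3. Its wild-type arrays fell in the order of those of FRE7, with an SD of 0.51, and its deletion arrays lay among them. The difference of GRE2 was 0.09 (SE 0.25, limma adjusted p = 0.934), with a root-mean-square difference of 1.11 from FRE7.

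The other genes of copper and metal handling were compared by the limma fit over all probe sets, on lists drawn up by known function. These lists also held 5 sulfur amino acid genes and 2 enolase genes. None of the 38 measured genes was called at an adjusted p under 0.05, against 0.2% of all probe sets. MET17, 1 of the 38, is deleted in both strains and so could not show a difference. An unadjusted p under 0.05 was found in 2 of the 38, CUP1-1 and ATX1, both lower in the deletion strain, and in 6.64% of all probe sets. Their median difference was -0.05, with 14 higher and 24 lower. Nothing of the size seen in FRE7 was present, since the largest values were 0.39 and -0.44.

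CTR3, a copper transporter gene that Mac1 also activates and that a Ty2 insertion in its promoter silences in many laboratory strains, had the highest of these differences. It read 7.35, 7.75, 8.18 and 7.48 in wild-type replicates 1 to 4 and 8.17, 7.94 and 8.13 in deletion replicates 1 to 3. Wild-type replicate 3 lay with the deletion arrays and the other wild-type arrays below them. The difference was 0.39 (SE 0.19, limma adjusted p = 0.784), and without wild-type replicate 3 it was 0.55 (SE 0.12, limma adjusted p = 0.196). In the same list of metal uptake, the low-affinity transporters FET4, SMF1 and SMF2 lay between -0.09 and -0.05.

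Copper detoxification is the task of metallothioneins, which the copper-activated factor Cup2 (also Ace1) induces when copper is high. The CUP1-1 probe set, which carries a suffix for a match to several transcripts and cannot separate CUP1-1 from the identical CUP1-2, read 13.30, 13.58, 13.45 and 13.61 in wild-type replicates 1 to 4. In deletion replicates 1 to 3 it read 13.05, 12.95 and 13.14, below all wild-type arrays. Groups without overlap and with the deletion lower were found in 1 of the 38 other genes and in 4.49% of all probe sets. The difference of CUP1-1 was -0.44 (SE 0.09, limma adjusted p = 0.264) and it lay between -0.55 and -0.33 against the wild-type pairs. The second metallothionein gene CRS5 was at -0.15 (SE 0.10) and CUP2 at -0.07 (SE 0.10).

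The 7 other genes of the reductase family were all lower in the deletion strain, from -0.39 for FRE5 to -0.04 for FRE4, with a median of -0.20, and none was called. FRE8, which had the smallest p among them, was at -0.23 (SE 0.12, limma adjusted p = 0.802). FRE2, a reductase induced by iron shortage, was at -0.24 (SE 0.18). It read 8.17, 7.77, 8.16 and 7.55 in wild-type replicates 1 to 4 and 7.39 to 7.86 in the deletion strain. Within the wild type FRE2 was thus higher in replicates 1 and 3, as FRE1 was, whereas its deletion arrays were not high.

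Genes that deliver copper or use it showed no common direction, with 6 of 13 higher, 7 lower and a median of -0.0022. ATX1, the copper chaperone of the secretory pathway, was at -0.32 (SE 0.13, limma adjusted p = 0.742), CCC2, the copper pump it serves, at -0.08 (SE 0.15), and FET3, the multicopper oxidase of iron uptake, at -0.06 (SE 0.10). SOD1, the copper-zinc superoxide dismutase, was at 0.03 (SE 0.06), CCS1, its copper chaperone, at 0.02 (SE 0.11), and SCO1, a copper chaperone of cytochrome c oxidase, at 0.20 (SE 0.11).

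The iron regulators AFT1, AFT2, YAP5 and TIS11 (also CTH2) lay between -0.17 and 0.07, with AFT2 at 0.07 (SE 0.08, limma adjusted p = 0.847). Around the reaction of Irc7, the 5 sulfur amino acid genes lay between -0.08 and 0.18, with CYS3, a cystathionine lyase, at 0.14 (SE 0.09, limma adjusted p = 0.808). MET17 is one of the deleted markers, and its level there was background. The enolase genes ENO1 and ENO2 were at -0.08 (SE 0.08, limma adjusted p = 0.853) and -0.00074 (SE 0.05), beside the 0.64 of REE1.

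**Figure D5:**
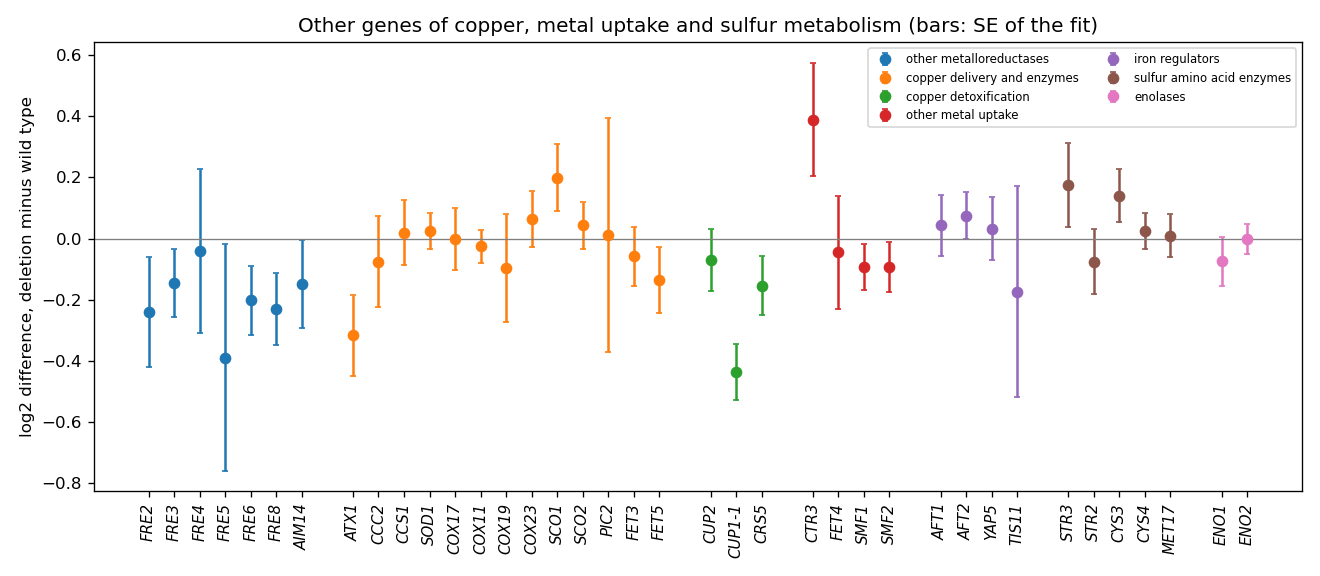
Log2 difference, deletion minus wild type, of 38 other genes of copper handling, metal uptake, iron regulation, sulfur metabolism and enolase, by list. Bars are standard errors of the limma fit. All lie between -0.44 (CUP1-1) and 0.39 (CTR3), and none passed an adjusted p of 0.05.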

How the data were processed

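The authors deposited log2 expression values per probe set. The submitters' processing notes name RMA and affy 1.52.0. Filters and the probe set definition were not stated there. RMA gives all arrays alike distributions, so a change in total RNA cannot be seen.

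Columns were matched to samples by accession and groups taken from the titles. Probe sets were named from the platform annotation, with 12 symbols updated through RefSeq R64. The 5498 named probe sets were fitted with limma 3.58.1 (lmFit, eBayes, two-sided) in R 4.3.3, with Benjamini-Hochberg adjustment and a threshold of 0.05. Errors of differences are standard errors of this fit. HMT1 was also compared by an exact permutation test over 35 splits. For likeness, over genes whose mean was not dim, a gene with several probe sets was taken by the one with the highest mean. The fit was tested on simulated data. Figures used matplotlib 3.10.9 in Python 3.11.15.

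The 7 genes and all lists were chosen with earlier results of these data known. Named beside them were, from each list, genes past the test or else that with the smallest p, and the 3 genes nearest in profile to each member whose range reached 1. CRR1, YJL218W, IMA5, GRE2, CDC123, AGA2 and other genes given with values were chosen after their values were seen. Alternatives were leaving out each array, median centring, repeated quantile normalization, leaving out dim probe sets (mean under 8.82, the 25th percentile), robust and weighted-array fits, a trend with intensity, a replicate block and parts of the wild type. The number of arrays limits the precision. Coordinates and sequences are not given.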

Additional observations from a re-analysis of the deposited data

Results flagged for a closer look

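REE1 had 1 wild-type array far from the others. Replicate 3 read 12.07 and the next wild-type array 10.95, and this gap was 0.933 of the whole wild-type range, larger than the 95% limit that Dixon gives for 4 arrays. REE1 was selected on its wild-type spread among other values, so this describes the arrays and is no test. It was the single case among the 15 named genes examined, and chance alone marks about 1 in 20. Other genes given with values, such as HSP78, were not examined in this way. In HSP78 wild-type replicate 3 read 10.37 and the other wild-type arrays 9.29 to 9.30.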

How the results depend on the processing

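The median difference of the 7 genes, 0.64 with all arrays, was 0.36 to 0.93 when 1 array was left out, the lowest without wild-type replicate 4 and the highest without replicate 3. It was 0.95 against wild-type replicates 2 and 4 and 0.054 against 1 and 3. Against these pairs CTR1 was at 1.45 and 0.15 and IRC7 at 0.57 and -0.028. The median wild-type SD percentile of the 7 genes, 98.6, was 90.7 to 99.1 when 1 wild-type array was left out, the lowest without replicate 3. The number of called probe sets, 11 over the whole table, was 1 to 9 when 1 array was left out, 0 without dim probe sets (a filter that removes HMT1 and FRE7), 59 with array weights and 7 against wild-type replicates 1 and 3. With array weights, 1 of the 38 other genes was called, CUP1-1 at -0.48 (SE 0.07, limma adjusted p = 0.0254), whose adjusted p was 0.0848 to 0.892 in the other alternatives. With the replicate block, which loses wild-type replicate 4, 1 probe set was called and the median of the 7 genes was 0.36. The main fit did not pair the arrays by number. Deviations of same-numbered arrays correlated at -0.03, 0.17 and -0.51 over probe sets, and those of differently numbered arrays at -0.30 to 0.36. These values cannot decide whether the numbers pair the arrays, because deviations from the mean of a strain depend on each other. Causes of these changes were not tested. FRE7 was 1.38 to 2.87 higher in the 15 alternatives that measured it. Few arrays and the low wild-type signal of FRE7 limit the precision.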

Other observations

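Among the 38 other genes, 3 had a wild-type SD above 0.5. PIC2, a copper and phosphate carrier of the mitochondrial inner membrane, read 9.53, 10.39, 9.64 and 11.06 in wild-type replicates 1 to 4 and 9.99, 9.84 and 10.68 in deletion replicates 1 to 3. Its highest array was wild-type replicate 4, where CTR1, FRE1 and FRE7 were lowest. TIS11, an RNA-binding protein gene of the iron response, read 10.63, 9.58, 10.68 and 9.36 in wild-type replicates 1 to 4 and 9.60 to 10.07 in the deletion strain. FRE5 read 7.22, 6.53, 6.92 and 5.64 in wild-type replicates 1 to 4 and 5.70 to 6.56 in the deletion strain. The wild-type order of TIS11 was that of CTR1, FRE1 and FRE7, with replicate 3 highest and replicate 4 lowest, and in FRE5 replicate 1 was highest and replicate 4 lowest. In neither gene were the deletion arrays at the top. In TIS11 they lay below wild-type replicates 1 and 3 and above replicates 2 and 4. In FRE5 they lay below wild-type replicates 1 and 3 and above replicate 4. PIC2 had a difference of 0.01 (SE 0.38), TIS11 of -0.17 (SE 0.35) and FRE5 of -0.39 (SE 0.37), and none was called by limma.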
